A study of Mus musculus with 483 samples.

Results

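Runx1, Cbfb, Gfi1, Gfi1b, Myb, Ikzf1, Neurl3 and Adgrg1 are 8 mouse genes that act in, or mark, the passage of endothelial cells into blood cells. They are 8 of the 46078 genes in a table of reads from single cells, and all 8 were found there by name. The cells were sorted as CD31+kit+CD45- from the aorta-gonad-mesonephros region (AGM) of the mouse embryo. Each cell was labelled aDll4-treated or Ctrl, and carried 1 of 7 cluster numbers. In clusters 1 to 7 there were 86, 72, 36, 12, 7, 19 and 12 treated cells, and 97, 73, 31, 10, 6, 14 and 8 Ctrl cells. The labels do not explain aDll4, and give neither a strain, an age nor a dose.

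The labels call the cells hematopoietic stem cells. Their transcripts were mostly endothelial. The endothelial cadherin Cdh5 stood at 385, 338 and 275 CPM (reads of a gene, scaled to the same total of reads in every group) in the submitters' ICGS clusters 1, 2 and 3, and at 8.83 CPM or less in clusters 4 to 7. Clusters 1 to 3 are called endothelial here (395 cells). Clusters 6 and 7 are called blood (31 treated and 22 Ctrl cells) from Rac2, a GTPase of blood cells, at 475 and 278 CPM against at most 0.494 CPM in the other clusters. Clusters 4 and 5 (19 treated and 16 Ctrl cells) carried mesenchymal transcripts, such as the collagen gene Col3a1 at 485 and 3903 CPM. Ptprc, the gene of the sorted-out CD45, stood at 0.889 CPM or less in every cluster.

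Definitive blood cells arise in the embryo from hemogenic endothelium, a small part of the lining of the aorta. RUNX1, which binds DNA together with its partner CBFB, is required for this step in the mouse, and the related repressors GFI1 and GFI1B act under it by recruiting histone demethylases to switch off endothelial genes. MYB and the zinc finger protein IKZF1 act in the stem and progenitor cells that follow. NEURL3 is a ubiquitin ligase and ADGRG1 (GPR56) an adhesion receptor, so neither is a transcription regulator. Both are used as markers of hemogenic endothelium and of emerging stem cells in the mouse.

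The promoters of Runx1, Gfi1 and Gfi1b are shown because RUNX1 is known to act on its own gene, and the GFI1 proteins repress each other's genes. Each window runs from 250 bases before a start site to 50 after it, from RefSeq on GRCm38.p6, and is written on the strand of the gene. All of these genes lie on the minus strand. Capitals mark a RUNX match (TGTGGT on either strand) or a GFI1 core match (AAATCA on either strand).
Runx1, first window, chr16:92826025-92826324: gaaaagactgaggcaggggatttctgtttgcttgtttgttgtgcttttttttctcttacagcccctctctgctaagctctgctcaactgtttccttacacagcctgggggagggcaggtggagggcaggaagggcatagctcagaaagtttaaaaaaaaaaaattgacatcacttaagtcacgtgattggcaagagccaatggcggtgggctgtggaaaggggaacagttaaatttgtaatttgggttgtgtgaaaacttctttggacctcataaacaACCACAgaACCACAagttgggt
Runx1, second window, chr16:92697280-92697579: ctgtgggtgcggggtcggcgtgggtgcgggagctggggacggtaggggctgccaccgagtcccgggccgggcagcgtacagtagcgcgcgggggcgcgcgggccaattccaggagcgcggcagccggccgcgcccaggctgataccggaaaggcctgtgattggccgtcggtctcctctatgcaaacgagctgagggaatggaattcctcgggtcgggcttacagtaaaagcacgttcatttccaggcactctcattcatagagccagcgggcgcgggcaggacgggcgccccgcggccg
Gfi1, first window, chr5:107725756-107726055: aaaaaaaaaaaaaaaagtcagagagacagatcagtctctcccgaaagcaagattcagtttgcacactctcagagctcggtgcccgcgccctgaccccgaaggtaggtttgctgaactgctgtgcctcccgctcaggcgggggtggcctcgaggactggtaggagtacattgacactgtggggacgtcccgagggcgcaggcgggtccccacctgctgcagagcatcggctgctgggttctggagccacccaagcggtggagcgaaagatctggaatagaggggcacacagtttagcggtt
Gfi1b, chr2:28621933-28622232: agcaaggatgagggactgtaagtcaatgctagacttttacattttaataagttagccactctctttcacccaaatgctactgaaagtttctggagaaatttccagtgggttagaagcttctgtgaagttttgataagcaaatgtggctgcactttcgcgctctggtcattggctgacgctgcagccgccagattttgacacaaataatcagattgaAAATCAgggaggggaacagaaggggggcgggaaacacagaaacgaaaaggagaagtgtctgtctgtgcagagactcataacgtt

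RUNX matches stood in 1 of the 12 windows of the 8 members, against 16.8% of 32851 windows of this length in all genes. That window is the first of Runx1, where 2 matches on the opposite strand begin 29 and 37 bases after the start. The GFI1 core stood once in the Gfi1b window, 34 bases before the start, and occurs in 14% of all windows. The second Ikzf1 window (chr11:11689927-11690226) held 2 matches, the nearer 99 bases before the start. No Gfi1 window held either motif. Of other factors, the MYB motif TAACNG (either strand, in 23.3% of windows) stood in the first Runx1 window, the Neurl3 window and the second Adgrg1 window. The GATA motif AGATAA (either strand, 11.2% of windows) stood in the Neurl3 window alone among the members. A match is a run of letters, not a site known to be bound.

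Each treatment counted as 1 sample because no embryo, animal or culture is named, so no difference below was tested and none has a p-value. Reads assigned to genes numbered 123097 to 2451790 per treated cell (median 869802) and 136928 to 2870618 per Ctrl cell (median 900286). A level is the sum of reads over the cells of a group as CPM, with an exact Poisson 95% interval. A share is the percentage of cells with at least 1 read, or where stated at least 10 reads, with an exact Clopper-Pearson 95% interval. Differences between shares have Newcombe 95% intervals. All intervals cover counting error only, and amplified reads without molecular identifiers are not independent molecules.

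Runx1 (ENSMUSG00000022952, mm10 chr16:92601466-92826149, minus strand) was read in a minority of endothelial cells and in most blood cells. The share of cells with a read was 13.7%, 18.6% and 26.9% in clusters 1, 2 and 3, 13.6% and 53.8% in clusters 4 and 5, and 84.8% and 95% in clusters 6 and 7. Its level over the same 7 clusters was 0.533, 10.1, 37.98, 0.439, 52.2, 121.2 and 221.6 CPM. Cluster 7 stood highest, and its interval (215.2 to 228.1 CPM) lay above that of cluster 6 (117.5 to 124.97 CPM). Clusters 1 and 4 had overlapping intervals at the bottom (0.431 to 0.652 and 0.201 to 0.834 CPM).

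Few cells carried most of the endothelial Runx1 reads. Of 70 endothelial cells with a Runx1 read, 34 had a single read and 23 had 10 or more. Those with 10 or more were 2 cells of cluster 1, 14 of cluster 2 and 7 of cluster 3. Among all 70, the median was 2.88 CPM and the highest 515 CPM, and 1 cell held 23.2% of the endothelial Runx1 reads. Blood cells were more even. Among the 47 positive blood cells, the median was 116.6 CPM, the highest 577 CPM, and 1 cell had 1 read only.

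Cbfb (ENSMUSG00000031885, chr8:105170674-105217989, plus strand), which encodes the partner that stabilises RUNX1 on DNA, was read in most cells of every cluster. The share with a read was 85.8%, 82.1% and 67.2% in clusters 1 to 3, 77.3% and 92.3% in clusters 4 and 5, and 57.6% and 55% in clusters 6 and 7. Its level was 86.7, 90.1, 98.3, 126.5, 96.2, 31.7 and 17.4 CPM in clusters 1 to 7. It was thus lowest where Runx1 was highest, and across the 14 sums of cluster and treatment the log2 levels of the pair had a Pearson r of -0.65. These sums share their libraries and clusters, so this r is a description.

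The repressors Gfi1 and Gfi1b were high in different clusters, and 0 cells had 10 or more reads of both. Gfi1 (ENSMUSG00000029275, chr5:107716657-107726036, minus strand) was read in 11 cells of the whole series. Of these, 10 were endothelial, at 0.546%, 2.07% and 8.96% of clusters 1, 2 and 3, and 1 cell of cluster 4 had a single read. Its level was 0.00567, 1.59 and 21.1 CPM in clusters 1 to 3, where 57.4% of the cluster 3 reads came from 1 cell. No blood cell had a Gfi1 read (0 of 53, with an interval up to 6.72%), which limits the share of cells with a read and not that of cells that express the gene. The share in blood minus that in endothelium was -2.53 points (-4.60 to 4.32), an interval that includes 0.

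Gfi1b (ENSMUSG00000026815, chr2:28609450-28621982, minus strand), which encodes the paralogue used in red cell and platelet precursors, was read in 72.7% of cluster 6 and 90% of cluster 7. Its level there was 236.3 CPM (231.1 to 241.5) and 538 CPM (528 to 548). In endothelial cells it stood at 0.150 CPM. Of 44 endothelial cells with a Gfi1b read, 42 had a single read and 0 had 10 or more, so its share in endothelium rests mostly on single reads. Cluster 4 held 1 cell above that range, with 37.3 CPM and 92.5% of the reads of its cluster.

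Myb and Ikzf1 were high in cluster 6 and lower in cluster 7. Myb (ENSMUSG00000019982, chr10:21124935-21160984, minus strand), needed for definitive blood progenitors, stood at 103.2 CPM (99.8 to 106.7) in cluster 6 and 16.8 CPM (15.03 to 18.6) in cluster 7. It was read in 78.8% and 35% of those cells, and 72.3% of the cluster 7 reads came from 1 cell. Ikzf1 (ENSMUSG00000018654, chr11:11685003-11772926, plus strand), the founder of the Ikaros family, stood at 166.1 CPM (161.8 to 170.5) in cluster 6 and 12.4 CPM (10.9 to 13.98) in cluster 7. It was read in 84.8% and 25% of those cells.

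In endothelium both were rare. Myb was read in 18 of 395 endothelial cells, 11 of them with a single read, and 4 cells, all in cluster 3, had 10 or more. Ikzf1 was read in 21 of 395 endothelial cells, 11 of them with a single read, and 7 had 10 or more. In cluster 5 neither had a read in any of the 13 cells.

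The markers Neurl3 and Adgrg1 were read more widely in endothelium. Neurl3 (ENSMUSG00000047180, chr1:36264597-36274679, minus strand) had a read in 16.9%, 20% and 17.9% of clusters 1 to 3 and in 27.3% and 25% of clusters 6 and 7. Its level over the 7 clusters was 21.01, 20.8, 55.4, 0.146, 23.4, 44.7 and 10.4 CPM, with 58.5% of the cluster 6 reads in 1 cell. Its share thus differed little between endothelium and blood. Adgrg1 (ENSMUSG00000031785, chr8:94974751-95014217, plus strand) had a read in 47%, 35.9% and 31.3% of clusters 1 to 3, and in 90.9% and 100% of clusters 6 and 7. Its level over the 7 clusters was 27.7, 23.5, 126.03, 0.977, 0.0650, 509 and 788 CPM. In cluster 3, 59.6% of the Adgrg1 reads came from a single Ctrl cell.

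**Figure D1:**
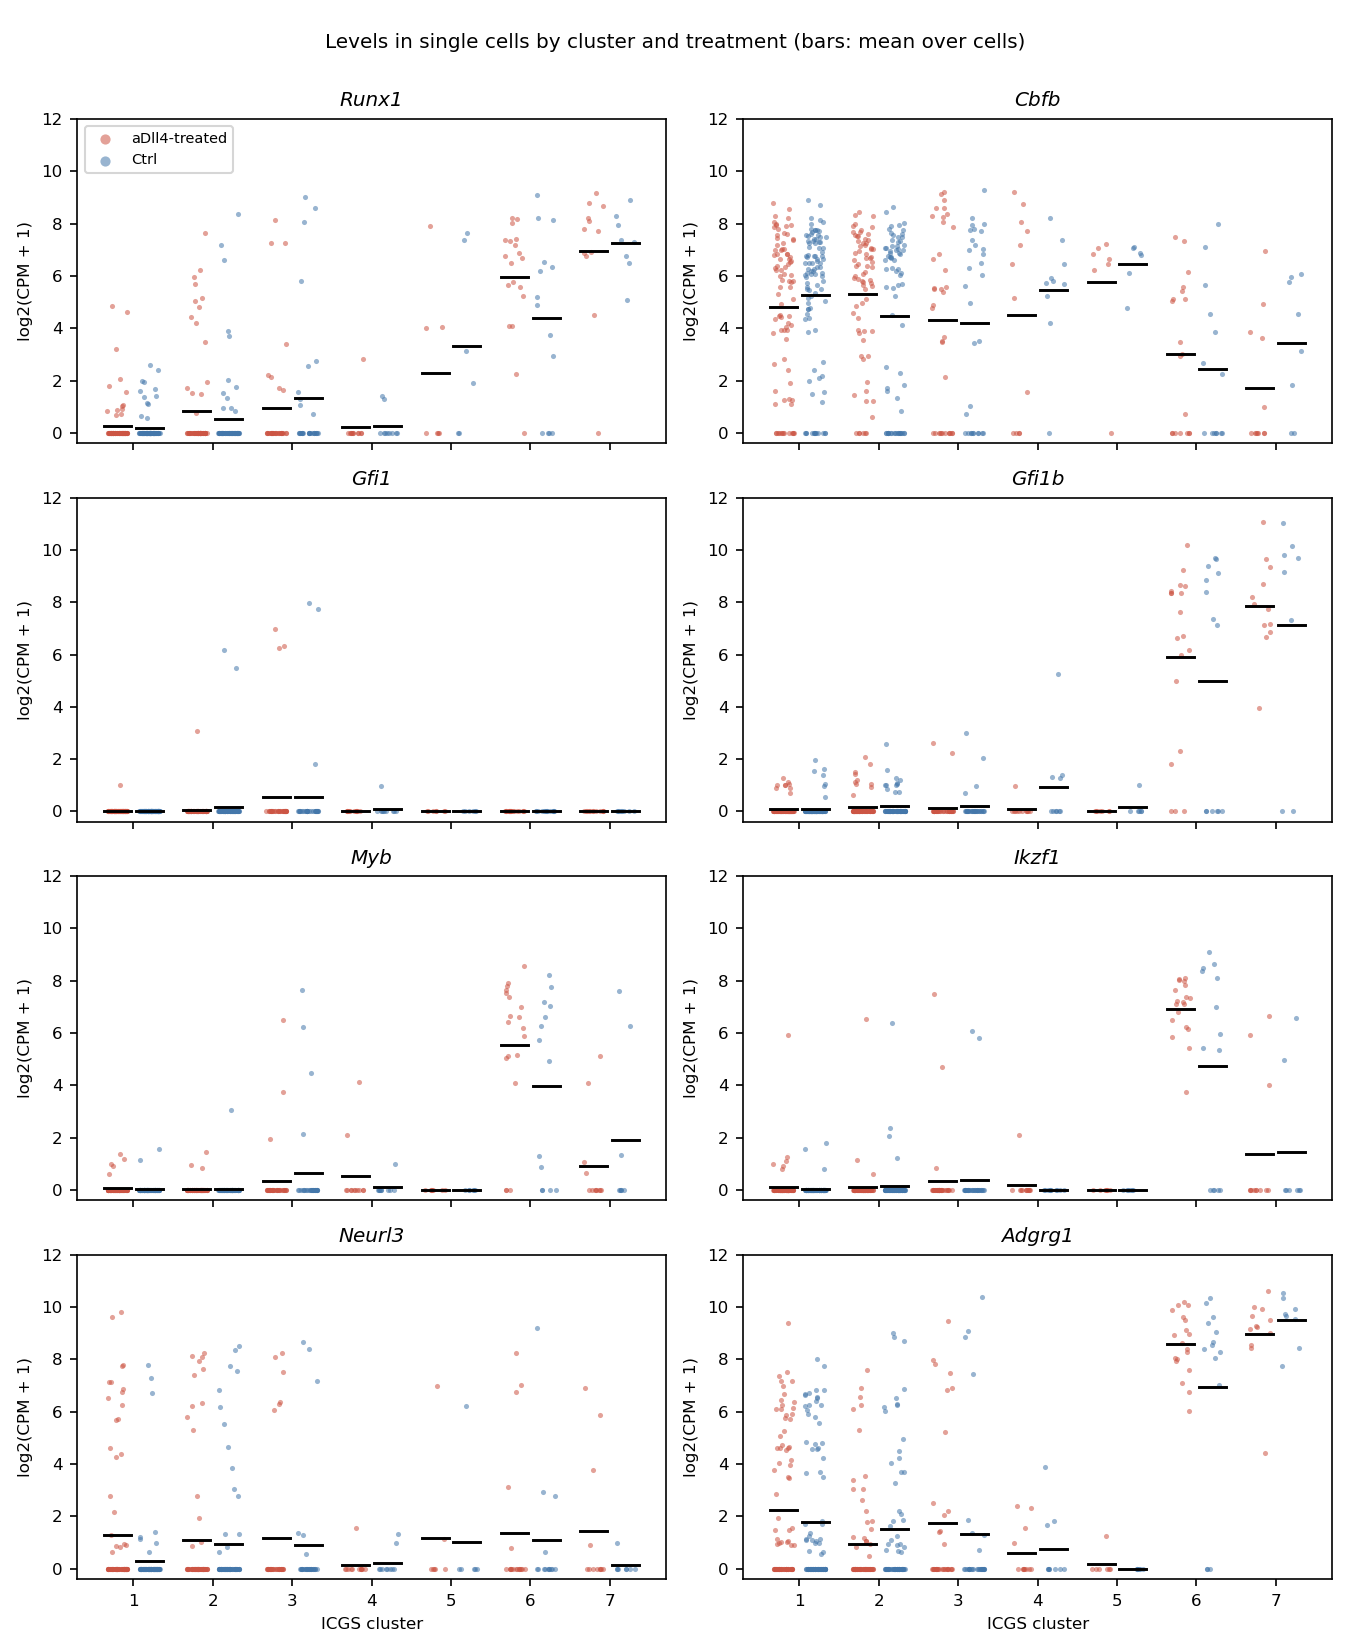
Each point is a cell, with log2(CPM + 1) of a member on the y axis and the ICGS cluster on the x axis, aDll4-treated cells left of Ctrl cells and a bar at the mean over cells. Runx1, Gfi1b and Adgrg1 cells sit high in clusters 6 and 7, Myb and Ikzf1 in cluster 6, Gfi1 cells lie in clusters 1 to 4, and most Cbfb cells lie above 0 throughout.

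Per kilobase of exon, so that genes can be set side by side, the order in blood cells was Gfi1b (191.5 CPM per kb), Adgrg1 (113.4), Ikzf1 (18.7), Runx1 (13.2), Neurl3 (9.86), Myb (7.89), Cbfb (7.56) and Gfi1 at 0. In endothelial cells it was Cbfb (25.7 CPM per kb), Neurl3 (8.04), Adgrg1 (7.44), Gfi1 (1.13), Runx1 (0.776), Ikzf1 (0.377), Myb (0.258) and Gfi1b (0.0821). Cbfb led in endothelium and stood next to last in blood, and Gfi1b led in blood and stood last in endothelium. Counting did not mark strand. Genes on the opposite strand that share exon bases with Runx1, Gfi1 and Myb had 29, 28 and 26 reads in all cells, against 12714 of Runx1, 1271 of Gfi1 and 4662 of Myb.

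Blood cells stood far above endothelial cells for Runx1, Gfi1b, Myb, Ikzf1 and Adgrg1, and below them for Cbfb. Runx1 was at 159.2 CPM in blood cells and 9.33 CPM in endothelial cells, which is 17.1-fold (log2 ratio 3.96). The log2 ratio is that of CPM + 1 here and below, which understates changes of low genes. Gfi1b was at 350 CPM in blood cells and 0.150 CPM in endothelial cells (log2 ratio 8.26), the largest ratio among the members. Ikzf1 was at 107.9 CPM in blood and 2.18 CPM in endothelium (5.10). Myb was at 70.5 CPM in blood and 2.31 CPM in endothelium (4.43). Adgrg1 was at 615 CPM in blood and 40.3 CPM in endothelium (3.90). Against these stood Cbfb, at 26.3 CPM in blood and 89.6 CPM in endothelium (-1.73), and Neurl3, at 31.7 CPM in blood and 25.9 CPM in endothelium (0.28). The sign for Neurl3 rests on Ctrl_177 of cluster 6, named by treatment and title number, which held 51.3% of its blood reads. Without that cell the log2 ratio was -0.67, and in block 1 of the library numbers described below it was -0.74.

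Of the 7 members with a read in at least 5% of these cells, 5 were at least 2-fold higher in blood, against 11.6% of 15043 genes measured in the same way. Another 1, Cbfb, was at least 2-fold lower, against 22.4% of all measured genes. The median log2 ratio was 3.96 over the 7 members and -0.017 over all measured genes. Gfi1 fell short of the 5% and is not in these counts. It was at 0 CPM in blood and 3.60 CPM in endothelium. The clusters were built by the submitters on these same cells, so these values describe and do not test. In treated cells alone the log2 ratio of Runx1 was 4.32 and in Ctrl cells alone 3.67, and Neurl3 was the member whose sign differed (-0.48 in treated, 1.22 in Ctrl).

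Within blood the members split by cluster. Cluster 7 carried platelet genes (Pf4 at 6875 CPM) and cluster 6 the red cell factor Klf1 (150.8 CPM) and the myeloid gene Mpo (99.2 CPM). Of the 7 measured members 1, Gfi1b, was at least 2-fold higher in cluster 7 than in cluster 6 (log2 ratio 1.18), against 10.7% of 15279 measured genes. Another 3 were at least 2-fold lower in cluster 7, against 14.3% of all. They were Ikzf1 (-3.64), Myb (-2.55) and Neurl3 (-2.0). Leaving out 1 cell ended 2 of these 4 calls. Without Ctrl_177, with 58.5% of the cluster 6 reads, Neurl3 had -0.84, and without Treat_036 of cluster 7 Gfi1b had 0.97. Runx1 (0.87) and Adgrg1 (0.63) were higher by less, and Cbfb was lower by less (-0.83).

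Within endothelium, cluster 3 had the highest levels of most members. In cluster 3 over clusters 1 and 2 the log2 ratio was 2.82 for Runx1, 3.73 for Gfi1, 4.01 for Myb, 2.40 for Ikzf1, 2.24 for Adgrg1 and 1.36 for Neurl3. Cbfb (0.16) and Gfi1b (0.18) stood near 0. The shares did not all follow. Runx1 was read in 26.9% of cluster 3, which is 11 points (0.889 to 23.2) above clusters 1 and 2, whereas for Adgrg1 the difference in share was -10.7 points (-22.0 to 2.23). In cluster 3 the cell Ctrl_202 held 39.6% of the Runx1 reads and 71% of the Myb reads, so these levels rest on few cells. Without it the log2 ratio was 2.49 for Myb and 1.03 for Adgrg1. How many of all measured genes were 2-fold higher in cluster 3 was not computed. Whether the rise is particular to the members was therefore not tested. The median number of genes per cell was 5937 in cluster 3, against 7795 in cluster 1 and 7370 in cluster 2. The part of this in the ratios was not tested.

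Runx1 also stood high in the mesenchymal cluster 5 with few other members. There, 6 of 13 cells had 10 or more Runx1 reads, 3 treated and 3 Ctrl. In these 6 cells the summed level of 6 endothelial markers was 5.36 to 13.6 CPM, that of 7 blood markers 0 to 25.1 CPM, and that of 6 mesenchymal markers 3711 to 18711 CPM. Over the whole of cluster 5, Gfi1, Myb and Ikzf1 had no read, Gfi1b and Adgrg1 had 1 read each, and 2 cells had 10 or more Neurl3 reads.

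The order of co-detection with Runx1 was followed at 1 read and at 10 reads. At 1 read, 70 endothelial cells had Runx1 and 325 did not. Among the 70, Cbfb was read in 54, Adgrg1 in 36, Neurl3 in 15, Gfi1b in 10, Gfi1 in 9, Myb in 7 and Ikzf1 in 5. The share in cells with Runx1 exceeded that in cells without by at least 10 points for 2 of the 7 other members, against 2.43% of 14904 measured genes. They were Adgrg1, in 51.4% of cells with Runx1 and 37.8% of cells without (13.6 points, 0.907 to 26), and Gfi1, in 12.9% of cells with Runx1 and 0.308% of cells without (12.5 points, 6.44 to 22.4). Gfi1 and Myb fell short of the 5% that defines a measured gene, so 1 of the 5 measured members met this.

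At 10 reads the endothelial order was Cbfb, Adgrg1, Neurl3, Gfi1, Ikzf1, Myb and Gfi1b. Of the 23 endothelial cells with 10 or more Runx1 reads, 17 had Cbfb, which was also at 10 reads in 257 of the other 372 cells. Adgrg1 was in 13 of the 23 (56.5%) and in 73 of the 372 (19.6%), a difference of 36.9 points (16.7 to 55.1). Neurl3 was in 9 of the 23 (39.1%) and in 35 of the 372 (9.41%), or 29.7 points (12.4 to 49.97). These markers were therefore the most frequent companions besides Cbfb, but most cells that had them lacked Runx1 at this depth.

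The factors Gfi1, Ikzf1 and Myb were rarer. Gfi1 was in 5 of the 23 cells (21.7%) and in 3 of the 372 (0.806%), Ikzf1 in 4 of the 23 (17.4%) and 3 of the 372 (0.806%), and Myb in 3 of the 23 (13%) and 1 of the 372 (0.269%). Their differences were 20.9, 16.6 and 12.8 points. Gfi1b was at 10 reads in 0 of the 23 and 0 of the 372. In all, 5 of the 7 members differed by at least 10 points, and 3 of the 5 measured ones did, against 18.1% of measured genes at this read minimum. The cells differed in depth too. Median reads were 1020878 in the 23 cells and 843108 in the 372, with medians of 7859 and 7369.5 genes. After every cell was thinned to 120000 reads, 10 cells kept 10 Runx1 reads. Of those 10, 7 had Adgrg1, 4 Neurl3, 3 Gfi1, 3 Cbfb, 1 Ikzf1, 1 Myb and 0 Gfi1b, so Adgrg1 and Neurl3 again came ahead of the factors.

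In blood the order was different. Of the 43 blood cells with 10 or more Runx1 reads, Adgrg1 was in 43, Gfi1b in 34, Ikzf1 in 26, Myb in 21, Cbfb in 19, Neurl3 in 7 and Gfi1 in 0. Gfi1b thus came last in endothelium and behind Adgrg1 alone in blood, while Gfi1 was in 5 of the 23 endothelial Runx1 cells and 0 of these 43. The 10 blood cells under 10 Runx1 reads had Adgrg1 in 7, Gfi1b in 6, Myb in 6, Ikzf1 in 5, Cbfb in 2 and Neurl3 in 1. Intervals of the differences all included 0 except that of Adgrg1 (30 points, 9.10 to 60.3).

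**Figure D2:**
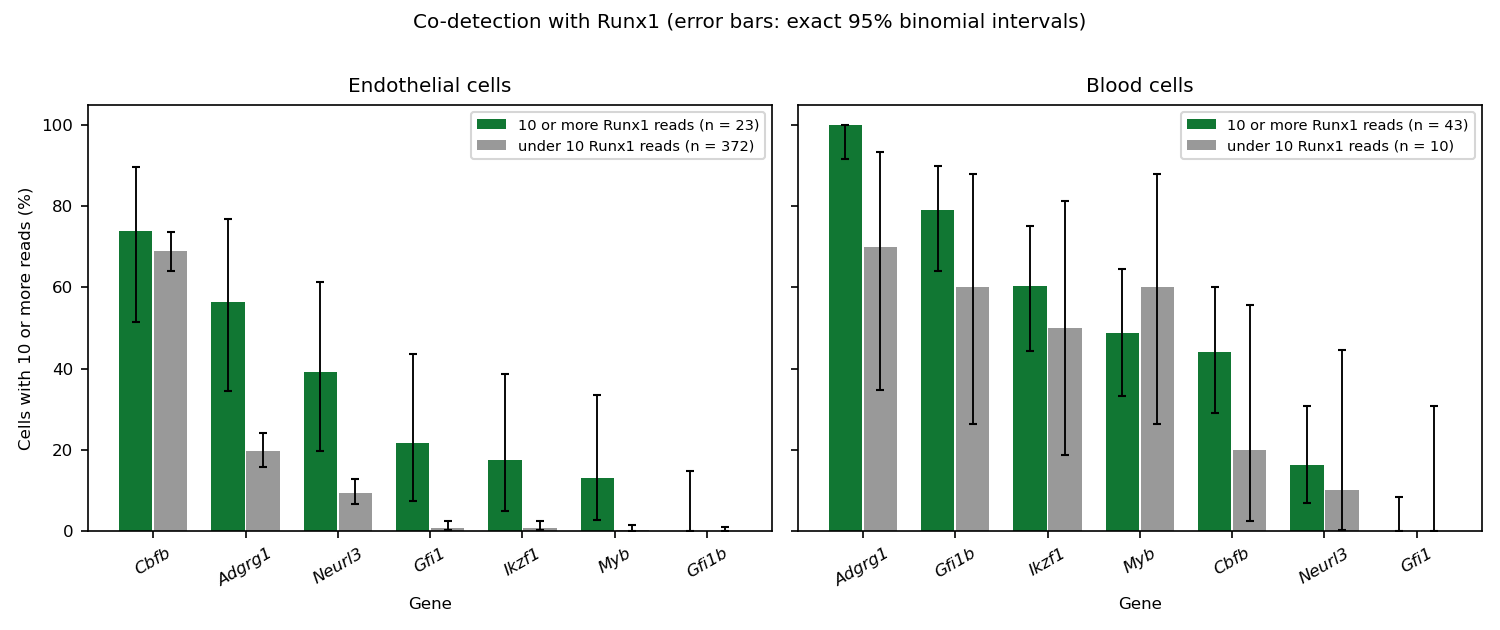
Bars give the percentage of cells with 10 or more reads of each member among cells with 10 or more Runx1 reads (green) and among the other cells (grey), in endothelial and in blood cells, with exact 95% binomial intervals. In endothelium Adgrg1 stood at 56.5% with Runx1 against 19.6% in the other cells and Gfi1b at 0% in both, and in blood Gfi1b stood at 79.1% with Runx1 against 60% in the other cells and Gfi1 at 0% in both.

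Members also met one another. Counting Gfi1, Gfi1b, Myb, Ikzf1, Neurl3 and Adgrg1 as companions at 10 reads, 9 of the 23 endothelial Runx1 cells had at least 2 (39.1%, 19.7 to 61.5%), against 17 of the other 372 cells (4.57%, 2.68 to 7.22%). By cluster these were 0 of 2 in cluster 1, 3 of 14 in cluster 2 and 6 of 7 in cluster 3. In blood 40 of the 43 Runx1 cells had at least 2, as did 8 of the 10 under 10 Runx1 reads. All 4 endothelial cells with 10 Myb reads also had 10 reads of Ikzf1, Neurl3 and Adgrg1, and 7 of the 8 with 10 Gfi1 reads had Adgrg1. Over all 395 endothelial cells, 86 had 10 reads of Adgrg1, 44 of Neurl3 and 7 of Ikzf1. Of the 44 endothelial cells with Neurl3, 21 had Adgrg1, and of those without, 65 had it and 286 did not. In blood 25 of the 27 cells with 10 Myb reads had Ikzf1, and of the others 6 had it and 20 did not. Cluster 6 held 24 of these Myb cells and 27 of the 31 blood cells with Ikzf1. Such counts were not made for pairs of other genes, so whether pairing is particular to the members was not tested.

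The cells with most members can be described one by one, by treatment and title number. Ctrl_202 of cluster 3 had 762 Runx1 reads (265 CPM) with Gfi1 at 213.9, Myb at 197.9, Ikzf1 at 55.04, Neurl3 at 336 and Adgrg1 at 1324 CPM. It was the deepest cell of the series (2870618 reads), and its Cdh5 level was 49.8 CPM. Of 7 blood markers only Laptm5 (185.3 CPM) and Spi1 (49.1 CPM) were read in it, and Rac2, Coro1a, Vav1, Was and Ptprc were at 0. Without it, 4 members in place of 5 differed by at least 10 points at 10 reads, since Myb fell to 8.82 points. Treat_136 of cluster 3 had Runx1 at 152.7, Myb at 89.3, Ikzf1 at 179.6, Neurl3 at 82.6 and Adgrg1 at 706 CPM, with the blood gene Coro1a at 1066 and Cdh5 at 200.7 CPM. In it 6 of the 7 blood markers were read, and Ptprc was at 0. Ctrl_184 of cluster 3 had Runx1 at 54.9, Myb at 73.6, Ikzf1 at 67.4, Neurl3 at 409 and Adgrg1 at 465 CPM, with Coro1a at 590.1 and Cdh5 at 201.5 CPM. In it Was, Laptm5 and Spi1 were read too, and Rac2, Vav1 and Ptprc were at 0. Doublets were not called, and their part in these cells was not tested.

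The summed markers of blood stood higher in the cells with more members, and those of other cell types were mixed. In the 9 endothelial Runx1 cells with at least 2 companions, the summed level of the 7 blood markers (Rac2, Coro1a, Vav1, Was, Laptm5, Ptprc and Spi1) was 88.4 to 1967 CPM, with a median of 327 CPM. The range was 0 to 376 CPM (median 42.2) in the 14 with at most 1 companion, and 0 to 799 CPM (median 35.5) in the 372 other endothelial cells. Of the 7 markers 6 had a read in the 9 cells, and Ptprc was at 0. The summed level of the 6 endothelial markers was 956 to 6399 CPM in the 9 cells, 331 to 13109.6 CPM in the 14 and 23.1 to 11722 CPM in the 372. Endothelial transcripts were thus present in all 23. The 6 mesenchymal markers summed to 1.05 to 2264 CPM (median 31.7) in the 9 cells, 0 to 1162 CPM (median 10.2) in the 14 and 0 to 12415 CPM (median 3.89) in the 372, and Pdgfrb was at 0 in the 9. The 5 myeloid markers had a pooled level of 52.03 CPM in the 9, 0.983 CPM in the 14 and 3.86 CPM in the 372, with Mpo at 0 in the 9. The 4 epithelial markers had a pooled level of 18.3 CPM in the 9, 0 CPM in the 14 and 2.81 CPM in the 372, with Cdh1 and Pax8 at 0 in the 9. Their median was 0 CPM in each group, and 2 of the 9 cells had 10 or more reads of one. The 6 erythroid markers had a pooled level of 23.2 CPM in the 9, 6.96 CPM in the 14 and 5.60 CPM in the 372. The 5 megakaryocyte markers were close in the 9 (30.6 CPM) and the 14 (28.4 CPM), and stood at 11.4 CPM in the 372. Among the 14, Ctrl_159 of cluster 3 had the megakaryocyte marker Itga2b at 606 CPM, with Cdh5 at 26.7 and Pecam1 at 2.67 CPM. That cell held 49.8% of the Runx1 reads of Ctrl endothelium in block 1. The part of these other markers in the counts of companions was not tested.

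**Figure D3:**
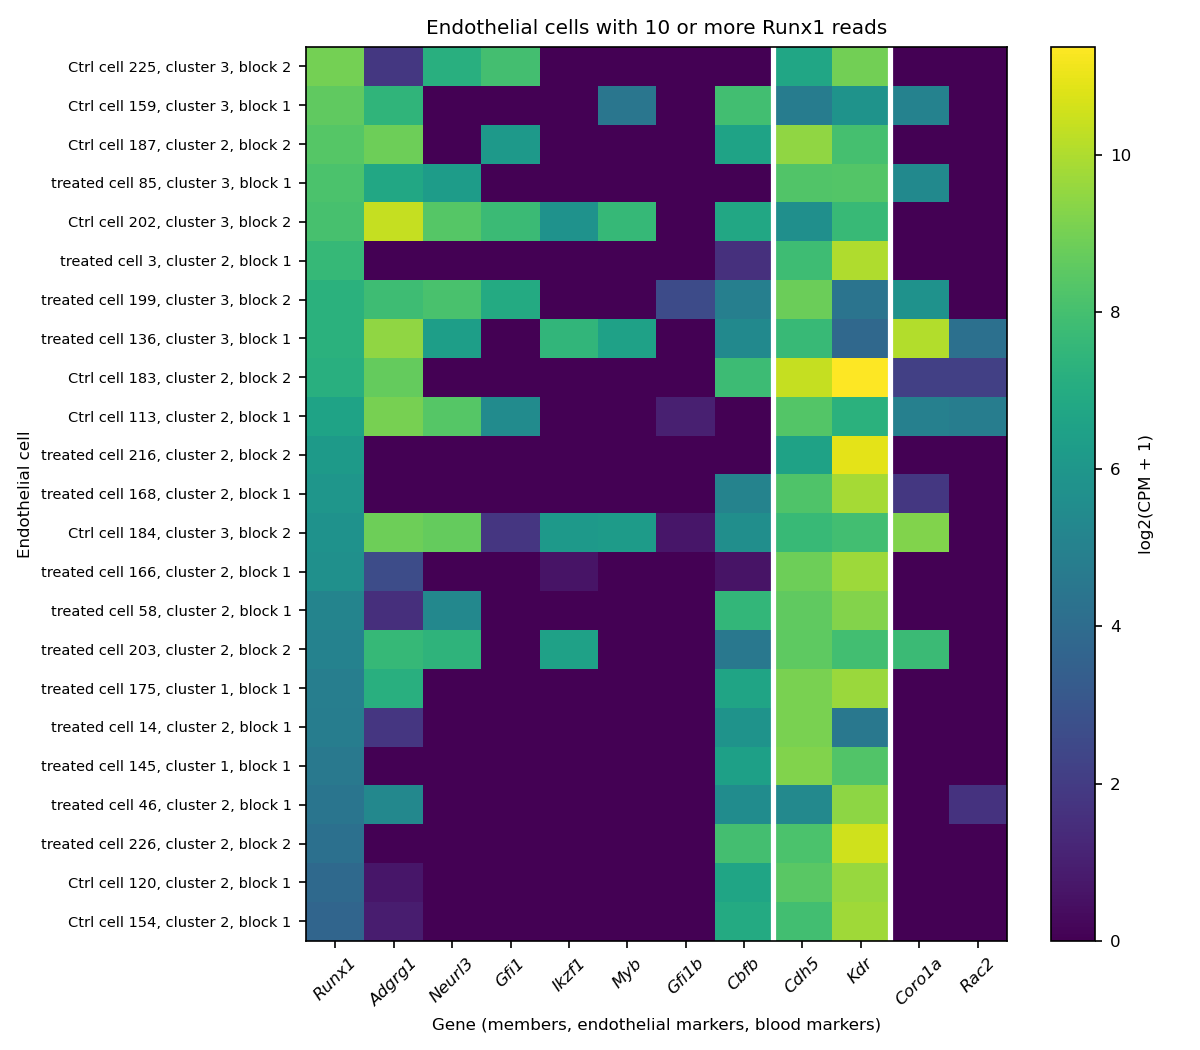
Each row is 1 of the 23 endothelial cells with 10 or more Runx1 reads, ordered by Runx1 from the top, each column a gene, and colour gives log2(CPM + 1), with endothelial and blood markers set apart by white lines. Cluster 3 cells such as Ctrl_202 and Treat_136 light up for several members, whereas most cluster 2 cells in the lower rows show Runx1, Cbfb, Cdh5 and Kdr with few other members.

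Gfi1 marked a few cells of 1 block of library numbers. The numbers in the titles fall into block 1, below 20000 (354 cells), and block 2, above 22000 (66 treated and 63 Ctrl cells). The labels do not say what the numbers stand for. Of the 11 cells with Gfi1, 10 were in block 2. At 10 reads the 8 cells were 4 treated and 4 Ctrl, and 7 of them were in block 2. Their Gfi1 levels were 7.33, 75.3, 79.7 and 124.8 CPM in the treated cells, and 43.3, 71.1, 213.9 and 250.8 CPM in the Ctrl cells. Of the 10 endothelial cells with any Gfi1 read, 9 had Runx1. The other, Treat_201 of cluster 3, had no Runx1 read but Gfi1, Myb, Ikzf1, Neurl3 and Adgrg1 all at 10 or more. Of the blood markers, Treat_201 had Ptprc at 49.5, Coro1a at 436 and Laptm5 at 100.05 CPM, with Rac2 and Spi1 at 0. Its Cdh5 level was 381 CPM, and Kdr was at 0.

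Other members also stood higher in the endothelium of block 2. Cluster 3, which had the highest levels of most members within endothelium, was unevenly split between the blocks. It made up 34 of the 95 endothelial cells of block 2 and 33 of the 300 of block 1. The part of this in the block values was not tested. Runx1 was at 20.9 CPM in block 2 and 4.45 CPM in block 1 (log2 ratio 2.01), with a share 15.5 points higher (6.15 to 25.9). Adgrg1 was at 95.1 CPM in block 2 and 17.2 CPM in block 1 (2.40). Of the 6 measured members these 2 were at least 2-fold higher in block 2, against 2.95% of 14905 measured genes. Another 0 were at least 2-fold lower, against 3.26%. Gfi1 (3.44) and Myb (2.41) were not measured by the 5% rule. Neurl3 (0.30), Ikzf1 (0.90), Cbfb (0.026) and Gfi1b (0.039) were closer to 0. Without Treat_136, which held 49.5% of the block 1 reads, Ikzf1 had 1.41, past 2-fold.

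The comparison of aDll4-treated with Ctrl cells asked whether the members differed with the treatment, and the answer depended on the block. Over all cells Runx1 was at 31.9 CPM in treated cells (31.2 to 32.7) and 25.6 CPM in Ctrl cells (24.98 to 26.3), a log2 ratio of 0.30. It was 1.15 in block 1 and -0.56 in block 2, and above 0 in 3 of 6 runs of 96 consecutive numbers. Of 7 measured members, 0 were at least 2-fold higher (1.16% of 15204 genes were) and 0 were at least 2-fold lower (0.888%). With both treatments weighted to the same cluster shares the Runx1 ratio was -0.13.

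Sex was not balanced between treated and Ctrl cells. By 10 or more reads of Y-linked genes or of Xist, 0 treated cells of block 1 were Xist-positive, 19 were neither, and all others were Y-positive. In block 2, 0 treated cells were Y-positive and 61 were Xist-positive. Ctrl cells were 77 Y-positive and 85 Xist-positive in block 1, and 29 Y-positive and 25 Xist-positive in block 2. Within Y-positive cells of block 1 the Runx1 log2 ratio was 2.51, and within Xist-positive cells of block 2 it was -0.26. The blocks differ in the sex of their treated cells, and within treated cells block and sex cannot be told apart.

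In endothelial cells the share with Runx1 was close in treated and Ctrl cells. It was 36 treated cells (18.6%, 13.3 to 24.8%) and 34 Ctrl cells (16.9%, 12.01 to 22.8%), a difference of 1.64 points with an interval of -5.91 to 9.22. At 10 reads it was 14 treated and 9 Ctrl cells, or 2.74 points (-2.03 to 7.73). The Runx1 level was 7.17 CPM in treated and 11.2 CPM in Ctrl endothelium (log2 ratio -0.58). Of the 5 cells with the highest Runx1 level, 3 were Ctrl cells of block 2. By block it was 7.10 CPM treated against 2.19 CPM Ctrl in block 1 (1.34), and 7.34 CPM treated against 33.98 CPM Ctrl in block 2 (-2.07). The mean of log2(CPM + 1) was 0.61 ± 1.61 in treated and 0.49 ± 1.53 in Ctrl endothelial cells (SD over cells).

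With all cells kept, no measured member reached 2-fold between treated and Ctrl endothelium. Of 6 measured members 0 were at least 2-fold higher (1.11% of 14905 genes were) and 0 at least 2-fold lower (1.46%), with a median log2 ratio of 0.026 against 0.0017 over all measured genes. Of the 6, 3 had a log2 ratio above 0, as did 50.2% of all. Neurl3 came closest, at 35.4 CPM in treated and 17.5 CPM in Ctrl cells (0.98), followed by Ikzf1 (0.28), Gfi1b (0.059), Cbfb (-0.0060) and Adgrg1 (-0.57). Without Ctrl_202 the Adgrg1 ratio was 0.19, and without Treat_136 that of Ikzf1 was -0.27. The unmeasured Gfi1 was at 2.24 CPM in treated and 4.81 CPM in Ctrl cells (-0.84), and was read in 5 cells of each. The unmeasured Myb was at 0.695 CPM in treated and 3.73 CPM in Ctrl cells (-1.48), and 69.9% of its endothelial reads came from Ctrl_202.

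Within blocks the members pointed apart. In block 1, 3 of 6 measured members were at least 2-fold higher in treated endothelium (Runx1, Ikzf1 and Neurl3), against 1.48% of measured genes, and 0 were 2-fold lower (2.05%). All 6 had a log2 ratio above 0 there, against 48.9% of measured genes. In block 2, 2 of 6 were at least 2-fold lower (Runx1 and Adgrg1), against 8.33% of measured genes, and 0 were 2-fold higher (6.82%). There 1 of the 6 had a log2 ratio above 0, against 51.6%. Leaving out 1 cell ended 3 of these 5 calls. In block 1 Ikzf1 (1.12) had 0.23 without Treat_136 and Runx1 (1.34) had 0.82 without Treat_085, while Neurl3 (1.93) had 1.62 without its highest treated cell. Adgrg1 (0.39) turned to -0.13 there without Treat_136. In block 2 Adgrg1 (-1.14) had -0.083 without Ctrl_202, which held 54.9% of the Ctrl reads. Runx1 (-2.07) had -1.92 there without Ctrl_225, its highest Ctrl cell by CPM, which held 10.8% of the Ctrl Runx1 reads. Ctrl_202 (762 Runx1 reads) and Ctrl_187 (661) had more Runx1 reads than Ctrl_225, and this ratio was not computed without them. Treat_199 held 71.4% of the treated Runx1 reads, and without it the ratio was -3.46. The Runx1 ratio of block 2 thus rests on few cells. Gfi1b (0.15) turned to -0.069 there without Treat_199. In the other direction, Ikzf1 passed 2-fold in block 2 without Treat_203 (-2.04), and Neurl3 did so without Treat_199 (-1.27). Block 2 held 48 treated and 47 Ctrl endothelial cells, and block 1 held 300 in all.

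In the endothelium of block 1, Neurl3 was at 40.8 CPM in treated and 9.95 CPM in Ctrl cells (log2 ratio 1.93), and 25 treated cells against 9 Ctrl cells had 10 or more reads. That is a difference of 11.3 points (4.11 to 18.7). It was higher in treated endothelium in all 4 runs of block 1 (log2 ratios of 1.35 to 4.03) and lower in both runs of block 2 (-0.20 and -1.03). In block 2, 5 of 48 treated and 5 of 47 Ctrl cells had 10 or more reads.

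In blood cells the summed levels of Runx1, Adgrg1 and Myb were close over both blocks. Runx1 was at 162.1 CPM in treated cells (157.7 to 166.5) and 154.6 CPM in Ctrl cells (149.3 to 160), a log2 ratio of 0.068. It was read in 29 of 31 treated and 18 of 22 Ctrl blood cells (11.7 points, -6.21 to 32.6). Gfi1b was read in 28 of 31 treated and 14 of 22 Ctrl cells, or 26.7 points (4.14 to 48.3), but its summed level was lower in treated cells, at 299 CPM against 431 CPM in Ctrl cells (-0.53). Ikzf1 was read in 22 of 31 treated and 11 of 22 Ctrl cells (20.97 points, -5.11 to 44.2). Adgrg1 was at 617 CPM in treated and 611 CPM in Ctrl blood cells. Of 7 measured members 0 were at least 2-fold higher (10.4% of 15279 genes were) and 0 at least 2-fold lower (6.5%). The blood cells were 19 treated and 14 Ctrl cells of cluster 6, and 12 treated and 8 Ctrl cells of cluster 7.

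**Figure D4:**
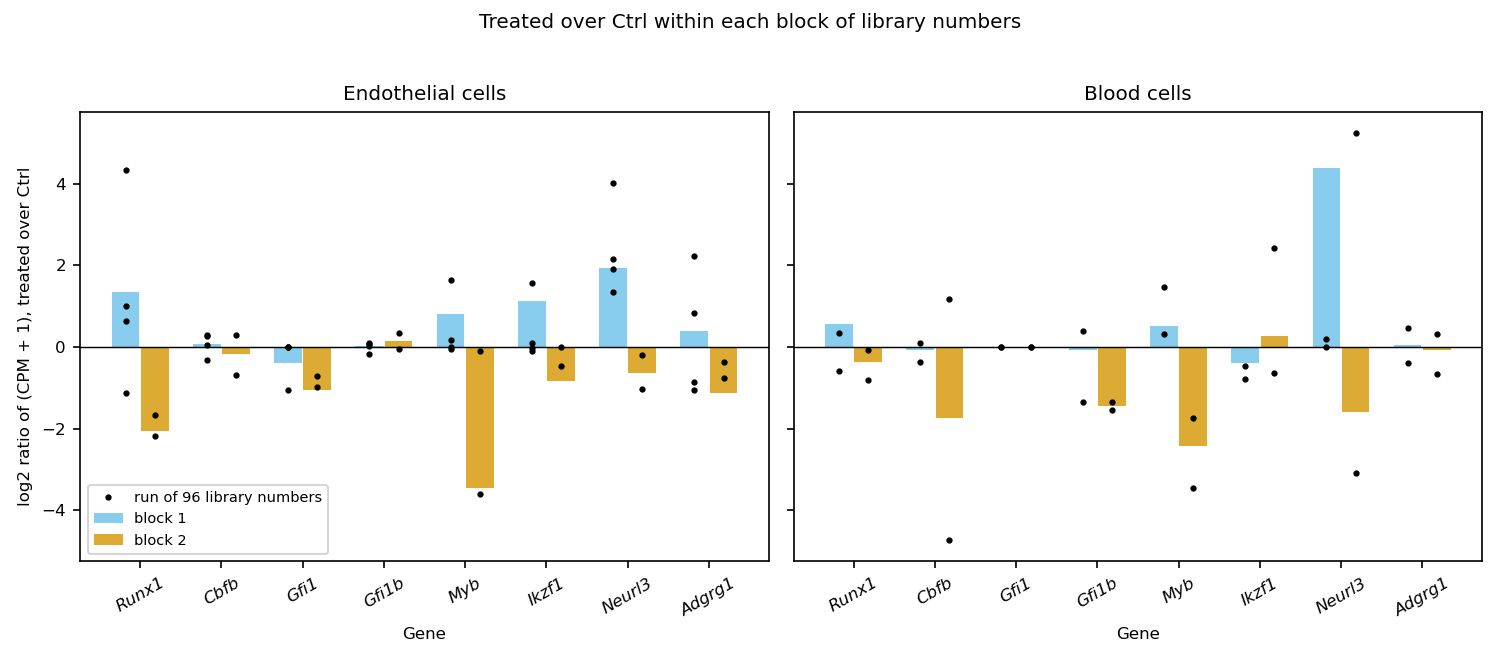
Bars give the log2 ratio of CPM + 1, treated over Ctrl, for each member in endothelial and blood cells of block 1 (blue) and block 2 (yellow), and points give single runs of 96 library numbers. In endothelium Runx1 stands at 1.34 in block 1 and -2.07 in block 2, and Neurl3 at 1.93 in block 1 and -0.63 in block 2.

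Partner genes of the members were followed as lists. The other RUNX and CBF genes did not share the Runx1 pattern as a group. Of 3 measured, Cbfa2t3 was at least 2-fold higher in blood, against 11.6% of all measured genes. It was at 35.7 CPM in blood and 8.23 CPM in endothelium (log2 ratio 1.99). Runx1t1 (-0.060) and Cbfa2t2 (-0.0059) stood near 0, and the list median was -0.0059. Runx2 and Runx3 were not measured. In treated over Ctrl endothelium Runx1t1 had -1.70, the only measured gene past 2-fold in the 7 lists. Of all measured genes, 1.11% were at least 2-fold higher in that comparison and 1.46% at least 2-fold lower. Runx1t1 was read in 6.84% of endothelial cells. It had 10 or more reads in 0% of those with 10 or more Runx1 reads and in 1.61% of the others. Its ratio thus rests on few cells.

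The corepressors that GFI1 proteins recruit were read in both compartments. Of the 5, Kdm1a, Rcor1, Hdac1, Hdac2 and Ehmt2, 0 were 2-fold apart between blood and endothelium, with a median log2 ratio of -0.30. Of all measured genes 11.6% were at least 2-fold higher in blood and 22.4% at least 2-fold lower. Kdm1a, the demethylase also called LSD1, was at 51.8 CPM in blood and 78.6 CPM in endothelium. At 10 reads, 4 of the 5 were at least 10 points more frequent in the 23 endothelial Runx1 cells, which were also deeper, against 18.1% of measured genes. Endothelial genes that GFI1 and GFI1B are known to repress in the mouse were at least 2-fold lower in blood for 8 of 8 genes, against 22.4% of measured genes, with a median of -5.28. They ran from Tie1 (-2.92) to Sox17 (-7.41), and they include markers used above to name the clusters. In the 23 endothelial Runx1 cells these genes were also read. Cdh5 had 10 or more reads in 100% of the 23 and 97.8% of the 372, and for 0 of 8 genes did the share fall by 10 points.

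Blood genes known as RUNX1 or MYB targets stood high in blood and were also met in Runx1 endothelium. In blood over endothelium 8 of 8 measured genes were at least 2-fold higher, against 11.6% of all, with a median of 4.69. They include Rac2, used above to name the blood clusters, and Spi1, another of the blood markers, so this count is a description. Among the endothelial cells, at 10 reads, 5 of 7 measured genes were at least 10 points more frequent with Runx1, against 18.1% of all. Spi1, the myeloid factor PU.1, was at 10 reads in 30.4% of the 23 cells and 0.538% of the 372. Nfe2, a platelet and red cell factor, was in 30.4% of the 23 and 3.23% of the 372, and the receptor Cd44 in 47.8% of the 23 and 9.41% of the 372.

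The transcription factors that work beside RUNX1 in blood progenitors, often called the heptad with their ETS partners, were mixed. Of 8, 4 were at least 2-fold higher in blood, against 11.6% of measured genes. They were Lyl1 (log2 ratio 2.06), Tal1 (2.00), Lmo2 (1.99) and Gata2 (1.28). Another 2 were at least 2-fold lower, Ets1 (-6.95) and Erg (-3.67), which is near the 22.4% of all measured genes. Gata2, which acts upstream of Runx1 in hemogenic endothelium, was at 10 reads in 69.6% of the 23 endothelial Runx1 cells and 32.3% of the 372. Lmo2 was less frequent with Runx1, in 65.2% of the 23 and 80.1% of the 372. Ikzf2, a paralogue of Ikzf1, was higher in blood (2.39), in 62.3% of blood cells and 13.4% of endothelial cells, and Ikzf5 was not (-0.080). Of the MYB family, Mybl2 (0.88) and Mybl1 (-0.12) were both within 2-fold.

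The genes most like Runx1 differed between endothelium and blood. Likeness is Pearson's r of log2(CPM + 1) over the cells, which share library depth and many zeros, so it is a description. Over 395 endothelial cells, of 11735 named genes, the highest were F10 (0.51), Art4 (0.49), Spi1 (0.48), Ocln (0.42), Cd44 (0.42), Sema4d (0.41), Itgb3 (0.41), Sfrp2 (0.41), Ifitm1 (0.40) and Lama3 (0.36). F10 had 10 or more reads in 8 cells only, so few cells carry these values. The best placed members were Adgrg1 (0.28, place 31), Ikzf1 (0.27, place 42) and Neurl3 (0.20, place 89).

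Over 53 blood cells, of 11776 named genes, the 10 highest included Fli1 (0.74), Adgrg1 (0.65), Lrmp (0.64), Plcg2 (0.64), Inka1 (0.62), Laptm4a (0.61), Rgs18 (0.60), Cdc42se1 (0.59) and Gabarapl1 (0.58). Adgrg1 was thus the only ranked member in either list of 10. Gfi1 fell short of the 5% in blood too, and was not ranked there. Gfi1b had 0.16, Ikzf1 -0.050 and Myb -0.14 in blood. Over the 14 sums of cluster and treatment the highest were Cd44 (0.93), Tmem147 (0.92), Vkorc1 (0.89), Tmco1 (0.88), Ltv1 (0.87), Ptk2b (0.87), Susd1 (0.87) and Zcchc10 (0.85), while Ikzf1 had 0.67, Gfi1b 0.65, Myb 0.62 and Adgrg1 0.59.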

How the data were processed

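Single cells were made into Smart-seq2 cDNA and sequencing libraries, per the labels' protocols. The table as deposited holds raw counts, 1 column of reads over genes for each cell. Mapping used GSNAP and mm10, and counting HTSeq 0.6.0, per the submitters' processing notes. Which annotation, counting settings and cell filter were used is not stated in the labels or the table. Smart-seq2 has neither molecular identifiers nor strand. Columns of no sample numbered 0, and 0 columns were identical to another.

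All cells were used, and no doublet caller was run. Reads were summed over the cells of a group and scaled to the group's total (CPM). Genes were measured if at least 5% of the compared cells had a read, and called at a log2 ratio of CPM + 1 of 1 or beyond, or at a share 10 points higher. Thinning drew 120000 reads per cell. Each treatment is 1 sample, since no embryo or culture is labelled, and no test was run. Blocks and the 6 runs of 96 come from the library numbers in the titles. The scripts were tested on simulated data. Alternatives were thinning, a higher read minimum, other scaling, single blocks, clusters or sexes, and leaving out the highest cell.

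Positions and exon lengths came from GENCODE M21 by gene identifier, and promoters from RefSeq. The members and gene lists were chosen with earlier results of these data known. Named genes are the 8 members, genes of the lists, and the 10 genes (over cells) or 8 genes (over sums) most like Runx1. 1 of the genes so chosen is not reported here. Software was Python 3.11.15 with pandas 2.3.3, NumPy 2.4.6, SciPy 1.17.1 and matplotlib 3.10.9, and R 4.3.3 with edgeR 4.0.16 and DESeq2 1.42.0 for scaling factors only.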

Additional observations from a re-analysis of the deposited data

Results flagged for a closer look

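Treated over Ctrl, Myb over all cells and in blood cells, and Neurl3 over all cells and in endothelial cells, pointed one way in every run of block 1 that was compared and the other way in every such run of block 2. Myb in endothelial cells (2 runs higher, 3 lower and 1 equal) and Neurl3 in blood cells (2 higher, 1 lower and 1 equal) did not. This difference between blocks was not tested. Over all cells Myb had a log2 ratio of 1.35 in block 1 against -2.48 in block 2. In blood cells it was 0.51 in block 1 and -2.42 in block 2, where each block held 2 runs with enough blood cells. Neurl3 had 1.92 in block 1 and -0.92 in block 2 over all cells, and 1.93 in block 1 and -0.63 in block 2 in endothelial cells. The treated cells of block 1 with a called sex were Y-positive and those of block 2 Xist-positive, and the part of this in these values was not tested.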

How the results depend on the processing

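The Runx1 ratio of treated over Ctrl cells (0.30) was 0.23 after thinning, 0.36 as a difference of means of log2(CPM + 1), 0.24 without the highest cell, 1.15 in block 1, -0.56 in block 2, -0.13 at equal cluster shares, 2.51 in Y-positive cells of block 1 and -0.26 in Xist-positive cells of block 2. These ratios by sex are over all clusters, and the share of endothelial cells differed between the treated and Ctrl cells compared. The difference in the endothelial Runx1 share (1.64 points) was -8.33 points in Xist-positive cells of block 2. Of all 8 members, with the unmeasured Gfi1 and Myb, 3 were higher in treated endothelium. They numbered 5 by means of log2(CPM + 1), 1 without the highest cell of each gene, 7 in block 1, 1 in block 2, 5 in clusters 1 and 2 alone and 6 in Y-positive cells of block 1. Of measured genes 50.2% were higher over both blocks, 48.9% in block 1 and 51.6% in block 2. Members more frequent with Runx1 (2, against 2.43% of measured genes) numbered 5 at 10 reads (18.1%), 5 after thinning (6.93%), 1 in block 1 (5.25%), 4 in block 2 (16.3%) and 1 in clusters 1 and 2 alone (5.36%). These counts and those of the next sentence are of all members but Runx1. They take in Gfi1 and Myb, whereas the percentages are of measured genes only. Chosen after seeing the data, the count of 5 at 10 reads became 4 without Ctrl_202 (16.6%), 4 after thinning (14%) and 2 in clusters 1 and 2 alone (14.7%), where Gfi1 and Adgrg1 were left. Also chosen after seeing the data, leaving out the highest cell of each gene in both groups gave 2 members at least 2-fold higher in treated endothelium of block 1 in place of 3, and 2 at least 2-fold lower in block 2, where Ikzf1 took the place of Adgrg1. The Myb ratio in treated over Ctrl endothelium (-1.48) was 0.80 in block 1, 0.072 in clusters 1 and 2 alone and 0.77 in Y-positive cells of block 1. The cause of these shifts was not tested. The count of 5 members at least 2-fold higher in blood was 5 under every alternative run. The Neurl3 ratio of blood over endothelium (0.28) was -0.52 without the highest cell of each group and -0.74 in block 1. Scaling by edgeR or DESeq2 factors shifted the blood over endothelial log2 ratios by -0.11 or -0.094 before 1 is added to CPM, and by no more than that on the scale reported. No paired analysis was possible because each treatment counts as 1 sample, and the labels do not say that a treated and a Ctrl cell of the same number belong together. Values within blocks and runs of library numbers stand in the report.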
